A study of Rattus norvegicus with 2 samples.

Results

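Among the H3K4me3 peaks of C6 rat glioma cells, 589 were wide but weak. They were chosen by 2 measured values of the deposited peak list, a width of 2000 bp or more and a score below 500, on chromosomes 1 to 20. They came from 30172 listed peaks, and made up 589 of the 5848 wide autosomal peaks, a share of 10.1% with an exact Clopper-Pearson 95% interval of 9.31 to 10.9%. The other 5259 wide peaks scored 500 or more and serve as the comparison. C6 is an established rat glioma line. One chromatin library was precipitated with a Millipore antibody against H3K4me3, and 1 input library of formaldehyde-fixed C6 cells had no antibody step. The labels name no treatment and no replicate. The input entered only through the authors' peak calling, and the depth of both libraries is unknown.

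Trimethylation of lysine 4 on histone H3 is laid down by the SET1 and MLL methyltransferase complexes and marks the nucleosomes that flank active and poised promoters, above all promoters with CpG islands. At some highly active or cell identity genes the mark spreads from the promoter into the gene body and forms a broad domain. A wide peak in a ChIP-seq list therefore usually goes with a high score, and a long stretch with little evidence is the less usual combination. The score was taken to be the p-value of a peak from the peak caller MACS, on a scale of -log10 multiplied by 10, because the highest listed score, 3233.06, is what the smallest positive double-precision number gives on that scale. A score rises with the reads in a peak and is not a fold enrichment.

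No p-value is given, since a single library has no replicate error, and every statement describes this list. Intervals are 95% and cover counting error only. Those of shares are Clopper-Pearson intervals, those of medians come from order statistics, and those of differences combine the intervals of both groups. Peaks are not independent replicates, and neighbouring peaks can belong to 1 enriched stretch. Genes and sequences at these positions were not analysed here, because no rn4 annotation or genome was used.

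The weak wide peaks lay mostly near the lower width limit. The median was 2292 bp, between a lower quartile of 2112 bp and an upper quartile of 2562 bp, and the highest value was 11585 bp. For the strong wide peaks the median was 2821 bp, between quartiles at 2351 and 3590.5 bp. Of the weak ones, 408 were 2000 to 2500 bp wide, 125 were 2500 to 3000 bp, 47 were 3000 to 4000 bp and 9 were 4000 bp or more. The weak share of all wide peaks fell with each wider class, from 18.6% to 9.13%, 3.47% and 0.962%. Because width differs between the groups, comparisons below are also given for peaks of 2000 to 2500 bp alone, 408 weak and 1782 strong.

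Scores of the weak wide peaks filled the range below the threshold. The median was 344.9, with quartiles of 255.2 and 430.6 and a lowest value of 63.57. Only 11 scored under 100, 78 scored from 100 to 200, 123 from 200 to 300, 179 from 300 to 400 and 198 from 400 to 500. Per kilobase of width, the weak wide peaks had a median score of 141.4, against 436.1 for the strong wide peaks. The rule uses both values of this ratio, so it fixes much of the contrast, and the highest weak value was 242.0. Weak peaks of 1000 to 2000 bp had a similar value, 147.5. The weak wide peaks together covered 1437 kb, or 3.47% of the bases in autosomal peaks.

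**Figure D1:**
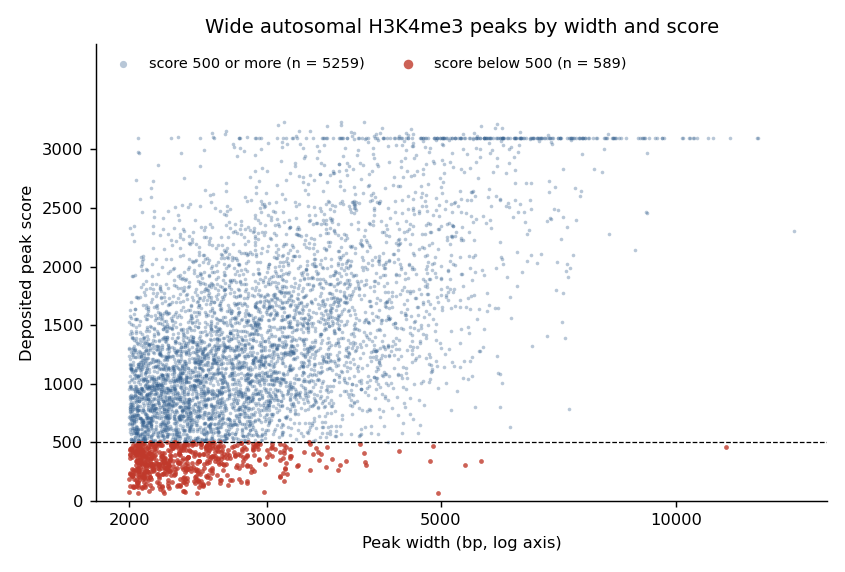
Width (bp, log axis) against deposited score for the 5848 wide autosomal peaks, 1 point per peak, with the score threshold of 500 as a dashed line. The 589 weak peaks crowd at the lower left, and few of them pass 4000 bp, while the strong peaks extend to 14151 bp.

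The threshold cuts through a continuous range of scores. The 5 peaks just inside it scored from 498.43 to 499.26 and were 2189 to 2839 bp wide. The 5 just outside scored from 500.34 to 501.18 and were 2031 to 2811 bp wide. Inside, the peak on chromosome 15 at 36207086 to 36209498 (score 499.26) had its nearest neighbour 128053 bp away, whereas the one on chromosome 10 at 47021727 to 47024565 (499.11) lay 261 bp from a second weak wide peak scoring 386.12. Outside, the peak on chromosome 16 at 61110377 to 61113187 (500.9) lay 9 bp from a peak of 1926.82, and the one on chromosome 4 at 49538757 to 49541229 (500.34) had its nearest neighbour 32134 bp away. Both sides of the threshold thus held crowded and solitary peaks.

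Weak wide peaks were not more isolated than strong wide ones. No other peak lay within 100 kb of 20 weak wide peaks, a share of 3.40% (interval 2.09 to 5.20%), and of 204 strong ones, 3.88% (3.37 to 4.44%). The difference of -0.48 percentage points had an interval from -1.91 to 1.39, so it was not larger than counting error. Another peak lay within 2 kb of 356 weak wide peaks, 60.4% (56.4 to 64.4%), and of 2901 strong ones, 55.2% (53.8 to 56.5%). This difference of 5.28 points had an interval of 0.983 to 9.48, while at 1 kb and 5 kb the differences of 3.17 and 3.37 points had intervals that include 0. At 2 kb it was 4.13 points with an interval of -1.36 to 9.54 between peaks of 2000 to 2500 bp and 16.4 points (7.06 to 24.9) between those of 2500 to 3000 bp, with shares of 68.8% and 52.4% there. It changed sign to -1.30 when the width limit was 1500 bp. Its interval included 0 with a score limit of 400 (-0.49 to 9.79) and without chromosomes 10 and 12 (-0.21 to 8.90). The same was so against strong wide peaks scoring 500 to 1000 only (-0.71 to 8.69). The interval lay above 0 with a score limit of 600, a width limit of 2500 bp, or X added. It also did when narrower neighbours scoring under 100 were left out. The share of peaks with no other peak within 10 kb was lower for weak than for strong ones of 2500 to 3000 bp, with a difference of -13.0 points (-20.2 to -4.54). The median distance to the nearest peak was 736 bp for weak and 940 bp for strong wide peaks, with overlapping intervals of 597 to 1065 and 814 to 1152 bp.

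The 20 isolated members were spread over 12 chromosomes, with at most 3 on one of them. Their scores ran from 78.12 to 499.26 with a median of 435.1, and their widths from 2022 to 11585 bp with a median of 2263 bp. The most isolated covered 2022 bp of chromosome 5, at 111303541 to 111305562, scored 432.46, and had its nearest peak 2110874 bp away. A peak on chromosome 6 at 139824718 to 139827074 scored only 78.12 over 2357 bp and lay 1607687 bp from any other. These 2 had no other peak within 500 kb on either side. The next were on chromosome 4 at 150351684 to 150353811 (score 205.32, nearest peak at 431881 bp), chromosome 1 at 224653024 to 224655268 (129.07, at 210435 bp) and chromosome 5 at 19630920 to 19633122 (326.24, at 188449 bp).

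The weak wide peaks differed from the strong ones in how often a strong peak lay close by. Another peak scoring 1000 or more, a limit chosen after the values were seen, was found within 10 kb of 189 of the 589 weak wide peaks, 32.1% (28.3 to 36.0%). The same was true of 897 of the 5259 strong wide peaks, 17.1% (16.0 to 18.1%). The difference of 15.0 points had an interval of 11.1 to 19.1. Among peaks of 2000 to 2500 bp the shares were 26.7% and 17.0%, a difference of 9.71 points (5.10 to 14.6). In wider classes the weak share was higher still, 44.0% against 17.5% at 2500 to 3000 bp and 40.4% against 17.0% at 3000 to 4000 bp. Of the 9 weak peaks of 4000 bp or more, 6 had such a neighbour.

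The difference was 10.9 points at 1 kb, 14.7 at 5 kb, 15.0 at 10 kb and 11.0 at 50 kb. Within 1 kb a peak scoring 1000 or more was present for 17.7% of weak and 6.75% of strong wide peaks. At 50 kb the shares were 54.3% and 43.4%, at 100 kb 67.1% and 58.9%, and at 1 Mb they met at 95.8% and 95.1%. The median distance to such a peak was 38169 bp for the weak and 67319 bp for the strong wide peaks. For a listed peak of any score the differences were 3.17 points at 1 kb, 3.37 at 5 kb and 2.75 at 10 kb.

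**Figure D2:**
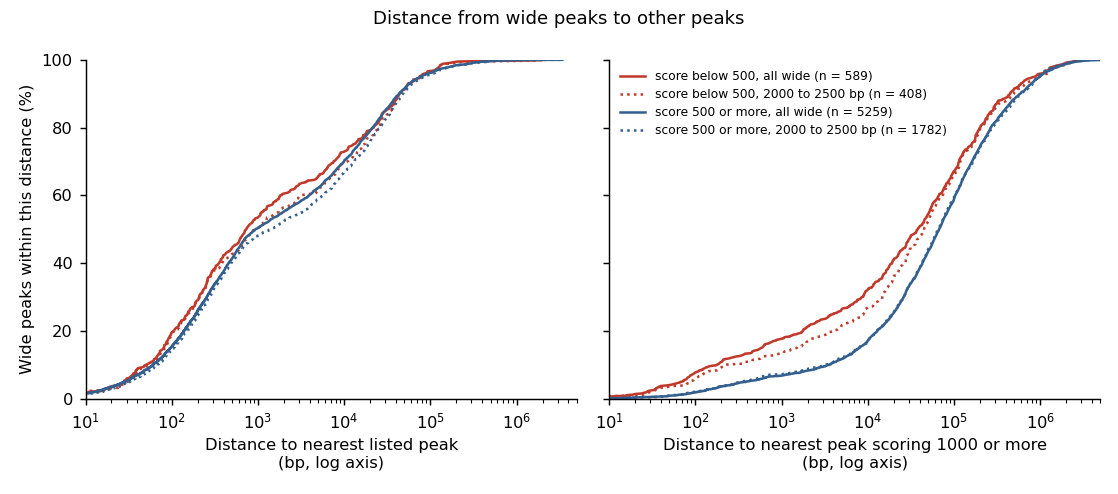
Cumulative share of wide peaks (%) within a given distance (bp, log axis) of the nearest listed peak on the left and of the nearest peak scoring 1000 or more on the right. Red lines are weak and blue lines strong wide peaks, with peaks of 2000 to 2500 bp dotted. On the right the red lines run above the blue ones from 1 kb to 100 kb, at 32.1% against 17.1% within 10 kb for all wide peaks, and meet them by 1 Mb. On the left the lines run close together.

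Pooled over scores, other wide peaks were also nearer. Another wide peak lay within 10 kb of 211 weak wide peaks, 35.8% (31.9 to 39.8%), and of 1133 strong ones, 21.5% (20.4 to 22.7%). The median distance to the nearest wide peak was 29343 bp (23627 to 40316) for weak and 48886 bp (46195 to 52171) for strong wide peaks. By score, the share within 10 kb was 49.4% under 200, 46.3% from 200 to 300, 26.3% from 300 to 400 and 31.8% from 400 to 500. It was 22.9% from 500 to 600, 19.1% to 19.9% in the bands from 600 to 2000, and 28.9% at 2000 or more. The median distance was 43438 bp from 300 to 400, 45320.5 bp from 400 to 500 and 35173 bp at 2000 or more. The nearest listed peak was itself wide for 28.2% of the weak and 18.9% of the strong. That nearest peak had a median score of 225.3 beside weak and 214.5 beside strong wide peaks, a difference of 10.9 with an interval of -28.9 to 97.5. Where the nearest peak lay within 1 kb, its median score was 317.3 and 219.7, a difference of 97.6 (3.32 to 230.5), but -19.8 (-92.8 to 81.9) between peaks of 2000 to 2500 bp. With neighbours left out that were under 2000 bp and scored below 100, the nearest one at any distance scored higher beside weak wide peaks by 139.3 (67.8 to 224.1).

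The share with a strong neighbour varied with the score of the wide peak itself. It was 38.2% (28.1 to 49.1%) for the 89 wide peaks under 200 and 39.0% (30.4 to 48.2%) for the 123 from 200 to 300. It was 26.3% (19.97 to 33.3%) from 300 to 400 and 30.3% (24.0 to 37.2%) from 400 to 500. Above the threshold it was 22.6% from 500 to 600, 17.9% from 600 to 800 and between 15.1% and 18.6% in the 4 bands from 800 upwards. The 2 lowest bands had the highest shares, and the intervals of the bands next to the threshold overlapped. Isolated peaks were 1.63% to 5.56% of each band on either side of the threshold.

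**Figure D3:**
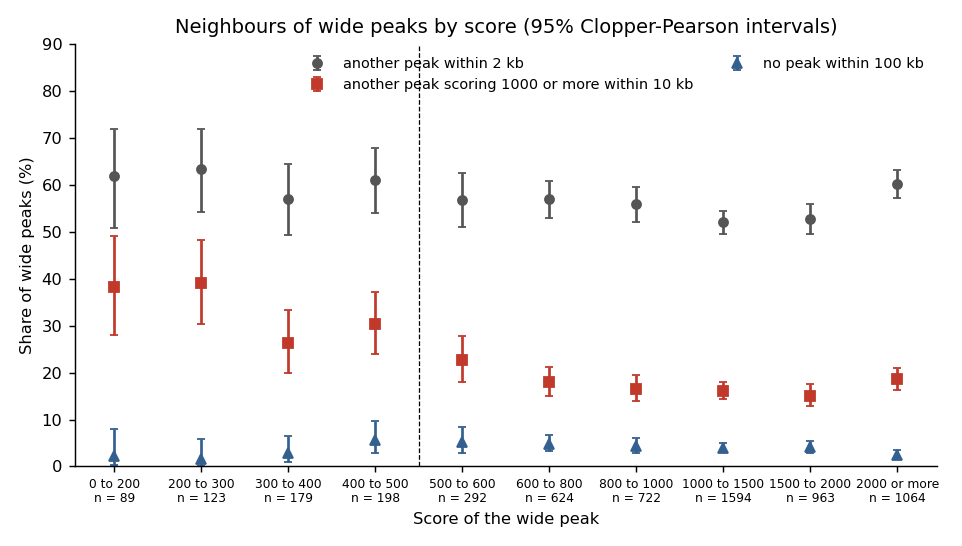
Shares of wide peaks (%) by score band, with 95% Clopper-Pearson intervals, for another peak within 2 kb (circles), another peak scoring 1000 or more within 10 kb (squares) and no peak within 100 kb (triangles). The squares fall from 38.2% and 39.0% in the lowest bands to about the level of 15.1% to 18.6% above 800, and the dashed line marks the threshold of 500.

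Narrower weak peaks stood between both groups in the share with a strong neighbour. Among 6395 weak autosomal peaks of 1000 to 2000 bp, 24.0% (22.9 to 25.04%) had a peak scoring 1000 or more within 10 kb. The weak wide peaks exceeded this by 8.12 points, with an interval of 4.21 to 12.2. Set against the strong wide peaks scoring 500 to 1000 only, of which 18.1% had such a neighbour, the difference was 14.0 points (9.72 to 18.3). The narrower weak peaks had a lower median score than the weak wide ones, 195.9 against 344.9, and were not matched by score. For another peak within 2 kb their share of 53.2% lay below those of the weak and strong wide peaks, 60.4% and 55.2%.

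Joining peaks up to 1 kb apart showed where these neighbours were. No peak lay within 1 kb of 274 weak wide peaks, 46.5% (42.4 to 50.6%), and these are called solitary here. A further 119, or 20.2%, were the strongest peak of their joined region, and 196, or 33.3% (29.5 to 37.2%), were joined to a stronger peak. Of the strong wide peaks, 49.7% were solitary, 43.8% were the strongest and 6.54% (5.89 to 7.24%) were joined to a stronger one. A low score makes a peak likelier to be the weaker of a pair by itself, so the rule fixes part of this contrast. The score of the strongest other peak in the region leaves out the member's own score but still depends on its rank. For a peak that leads its region it is the next highest score, and otherwise the highest. Among joined peaks 37.8% of weak and 87.0% of strong wide ones led, so the rule fixes part of this contrast too. The median of this score was 650.9 (502.6 to 868.9) for the 315 joined weak wide peaks and 324.3 (300.4 to 339.2) for the 2646 joined strong ones. It was 1000 or more for 39.7% and 16.1% of them. For joined weak peaks of 1000 to 2000 bp the median was 547.0, and the weak wide peaks exceeded it by 103.9 (-48.5 to 325.1). A partner of 500 or more was present for 55.9% of joined weak wide peaks and 52.3% of these narrower ones, a difference of 3.54 points (-2.42 to 9.39). For a partner of 1000 or more the difference was 8.63 points (2.93 to 14.5). Between weak and strong peaks of 2000 to 2500 bp the medians were 488.5 and 353.0, with an interval of the difference from -19.9 to 354.8, which includes 0. At 2500 to 3000 bp they were 1113.3 and 336.6, a difference of 776.7 (401.5 to 1094.5). A partner of 1000 or more was present for 32.7% and 17.7% of the joined peaks of 2000 to 2500 bp, a difference of 15.0 points (8.09 to 22.3).

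The solitary weak wide peaks showed no detectable excess of strong neighbours within 10 kb. They have no peak within 1 kb by definition, as have the solitary strong ones, so strong neighbours at that distance cannot count. In the whole set 189 weak wide peaks had a strong neighbour within 10 kb, and 104 had one within 1 kb. The difference at 1 kb was already 10.9 points, so the definition of solitary fixes part of the fall. A peak scoring 1000 or more lay within 10 kb of 40 of the 274, 14.6% (10.6 to 19.3%), and of 302 of the 2613 solitary strong wide peaks, 11.6% (10.4 to 12.8%). The difference of 3.04 points had an interval of -1.12 to 7.94. Their median distance to the nearest peak was 15976 bp, against 14998 bp for the solitary strong ones, and to the nearest wide peak 54785.5 against 55718 bp. No excess of strong neighbours was therefore detectable for solitary peaks at this number, whereas it was for the whole set. The difference between solitary and joined peaks in this excess was not tested. A peak of any score lay within 2 kb of 15.0% of the solitary weak and 9.76% of the solitary strong wide peaks. This difference was 5.20 points (1.02 to 10.1). Within 500 kb the solitary weak ones had a median of 19 other peaks and the solitary strong ones 22, a difference of -3 (-6.16 to -0.76).

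**Figure D4:**
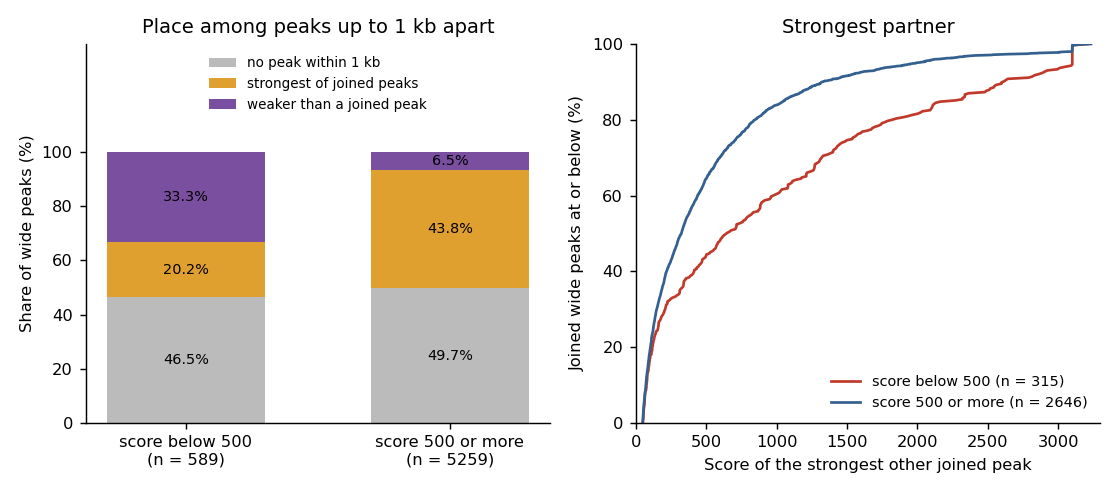
Left, shares of weak and strong wide peaks (%) that had no peak within 1 kb, were the strongest of the peaks joined up to 1 kb apart, or were weaker than a joined peak, with a total of 589 and 5259. Right, cumulative share (%) of the 315 weak and 2646 strong joined wide peaks by the score of the strongest other peak of the region, where the weak group lies further to the right (median 650.9 against 324.3).

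The 196 weak wide peaks joined to a stronger peak were picked by their partners, so the partners' scores are a description. The strongest peak of the region had a median score of 1304 and a median of 4.19 times the score of the member. For the 344 strong wide peaks joined to a stronger one the median ratio was 1.53, and their own scores of 500 or more limit it. It scored 1000 or more for 125 of them, 2000 or more for 59, and exactly 3100 for 16. A score of 3100 is shared by 230 peaks of the list. The partner was the nearest peak for 141 members, and its median distance was 249 bp. In 135 cases the partner was wide too, and 3 of these partners were weak wide peaks themselves. The member was the wider of both in 89 cases, or 45.4%. The members had a median width of 2370 bp and their regions one of 6531 bp, and a member took up a median of 37.5% of its region. The strongest peak lay at the lower coordinate for 110 members and at the higher for 86, and strand is not known here.

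The 119 members that led their regions scored under 500 by the rule, so each of their partners scored lower still, at most 473.93. Their strongest other peak had a median score of 116.4 and a median width of 791 bp, and the member was the wider in 118 of 119. These regions had a median width of 3601 bp, of which the member took up 66.7%. Regions of 3 or more peaks held 46.7% of joined weak wide peaks (41.1 to 52.3%) and 36.6% of joined strong ones (34.8 to 38.5%). A peak within 1 kb on both sides was about as frequent in either group, 10.9% and 11.2%.

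The 10 widest weak peaks included both kinds. The widest, on chromosome 1 at 215573401 to 215584985, was solitary. It spanned 11585 bp with a score of 460.75, or 39.8 per kilobase, its nearest peak scored 52.58 and lay 131828 bp away, and only 7 other peaks lay within 500 kb. Another solitary one spanned 4959 bp of chromosome 17, at 17519166 to 17524124, and scored 63.57, at once the fourth widest and the lowest score of all members, with 12.8 per kilobase. Its nearest peak was 51119 bp away. The last solitary one spanned 5372 bp of chromosome 13, at 86957169 to 86962540, scored 304.53 and had a peak of 443 bp at a distance of 1504 bp.

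The other 7 were joined to further peaks, and 6 of these to a partner above 1000. On chromosome 3 the member at 74923634 to 74929271 (5638 bp, score 343.34) was the widest of 6 peaks over 14580 bp, in which the peak at 74932052 to 74934872 scored 2117.16. At 155457479 to 155462365 of the same chromosome (4887 bp, 471.94) a peak of 3036 bp and 1081.41 followed after 28 bp. On chromosome 8 the member at 128259357 to 128264203 (4847 bp, 339.11) lay 2559 bp from a peak of 7528 bp with a score of 3100, with 2 peaks of 75.19 and 58.35 between them. On chromosome 4 the member at 42964118 to 42968122 (4005 bp, 328.72) lay 1339 bp from a peak of 7728 bp, also at 3100. In each of these 4 regions a long weak stretch shared a joined region with a wide peak scoring above 1000. Only at 155457479 to 155462365 of chromosome 3 was there no further peak between them.

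Of the remaining 3, the member on chromosome 1 at 77143588 to 77148006 (4419 bp, 429.32) began 67 bp after a narrower peak of 2383 bp scoring 1211.11. On chromosome 2 the member at 43116519 to 43120531 (4013 bp, 303.74) lay 111 bp from a peak of 4132 bp scoring 1211.5. Both of these partners were wide peaks too. The member on chromosome 10 at 86090706 to 86094693 (3988 bp, 409.77) was the exception, since its only partner scored 162.32.

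The lowest scores were found in solitary and joined peaks alike. After the chromosome 17 peak came one on chromosome 14 at 36074295 to 36076508 (67.64), with its nearest wide peak 11362 bp away. The next, on chromosome 4 at 66450054 to 66452497 (67.72), lay 210 bp from a peak scoring 1645.83. On chromosome 5 the peak at 71074598 to 71076652 (70.07) lay 98 bp from one scoring 281.54, and on chromosome 7 the peak at 22774609 to 22777584 (72.79) lay 702 bp from one scoring 627.44.

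Weak wide peaks were not nearer to one another than strong wide peaks were to them. The nearest wide peak was weak for 49 of the 589 weak wide peaks, 8.32% (6.22 to 10.8%), and for 611 of the strong ones, 11.6% (10.8 to 12.5%). The difference of -3.30 points had an interval of -5.58 to -0.63. Its value varied between width classes, which were not compared with one another. Among peaks of 2000 to 2500 bp the shares were 9.56% and 9.20%, a difference of 0.36 points (-2.68 to 3.88). At 2500 to 3000 bp they were 4.80% and 11.5%, a difference of -6.70 points (-10.3 to -1.07). With a width limit of 1500 bp the difference was 1.55 points. Without chromosome 15 it was -4.14 points, and it stayed negative without any 1 of the 20 chromosomes. Its interval included 0 with a score limit of 400, at -1.89 points (-4.13 to 1.01). It also did against strong wide peaks scoring 500 to 1000 only, at -1.94 points (-4.56 to 0.97). The interval lay below 0 with a score limit of 600, a width limit of 2500 bp, X added, or chromosomes 10 and 12 left out. Another weak wide peak lay within 10 kb of 2.72% of the weak and 4.24% of the strong wide peaks, and within 100 kb of 12.4% and 14.5%, differences with intervals that include 0. Within 1 Mb the shares were 50.9% and 57.0%, a difference of -6.02 points (-10.3 to -1.69), which was -2.60 points (-8.09 to 2.86) for peaks of 2000 to 2500 bp and -10.8 points (-20.3 to -1.31) for those of 2500 to 3000 bp. Against strong wide peaks scoring 500 to 1000 only, the 1 Mb difference was -2.06 points (-6.84 to 2.73). Among the 274 solitary members 0 had another member within 10 kb, for which a limit of 3 counts in the total gives a share of up to 1.09% and the Clopper-Pearson interval an upper bound of 1.34%. No more than 6 joined regions held 2 members, 12 members in all, while 132 members, or 22.4%, shared a region with a strong wide peak.

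Chains of members no more than 50 kb apart were short. There were 19 chains of 2 or more with 41 members in all, and 3 chains held 3 members. A pair of these lay on chromosome 12. The one at 15693171 to 15759935 held members scoring 312.39, 479.67 and 364.49 and 1 further peak, and the one at 28863942 to 28927742 held members of 353.25, 324.35 and 167.67 and no further peak. No peak inside either chain passed 479.67. The third, on chromosome 13 at 48755825 to 48811742, held members scoring 246.88, 434.25 and 150.41 among 11 peaks, of which the highest scored 1567.82. Of the chains of 2, the longest lay on chromosome 10 at 56719918 to 56759989 (scores 277.93 and 271.7, among 7 peaks up to 2217.52), followed by chromosome 18 at 30717766 to 30755914 (465.28 and 240.36, with no other peak between). Counted by 1 Mb windows, most members were alone, with 1 member in 386 windows and 2 in 82. The fullest window, from 32 to 33 Mb of chromosome 12, held 5 members among 14 wide peaks, and was picked by its size.

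Every one of the 20 autosomes held weak wide peaks, at shares of the wide peaks that overlapped within counting error. Chromosome 18 had the highest share, 23 of 171 or 13.5% (8.72 to 19.5%), followed by chromosome 2 with 54 of 417 or 12.9% (9.88 to 16.6%). Chromosome 20 had the lowest, 10 of 142 or 7.04% (3.43 to 12.6%), followed by chromosome 7 with 32 of 435 or 7.36% (5.09 to 10.2%). The highest and lowest differed by 6.41 points with an interval of -0.87 to 13.5, which does not allow for their choice as extremes. With other limits the interval lay above 0, and in all but 1 of these settings the extreme chromosomes changed. It was 3.12 to 11.7 (chromosome 12 minus 10) with scores below 400, 0.32 to 16.8 (18 minus 20) with scores below 600, 1.97 to 13.2 (14 minus 10) from 1500 bp, 1.32 to 13.7 (13 minus 7) from 2500 bp and 1.25 to 27.9 (12 minus 20) at 2000 to 2500 bp. The interval of each of the 20 chromosomes held the pooled share of 10.1%. X, outside the rule, had 8 weak among 76 wide peaks.

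**Figure D5:**
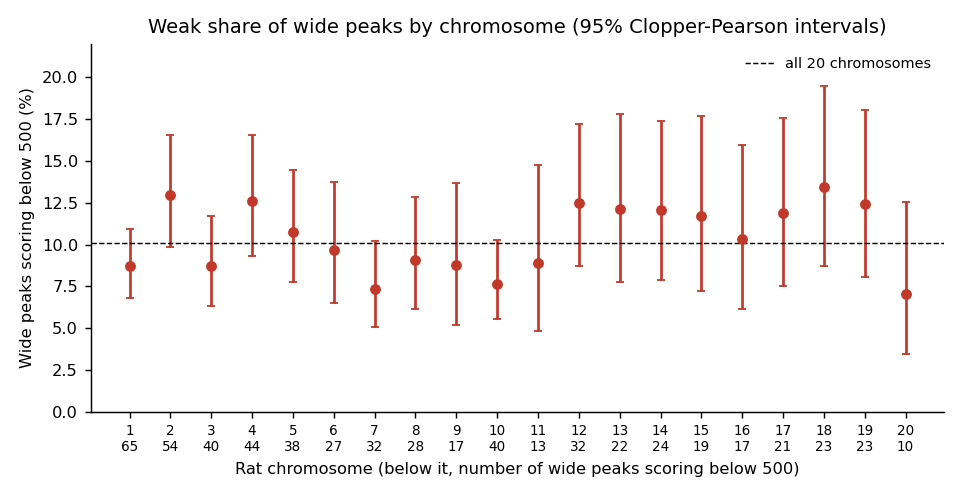
Share of wide peaks scoring below 500 (%) on each of the 20 rat autosomes, with 95% Clopper-Pearson intervals and the number of such peaks under each chromosome. Values run from 7.04% on chromosome 20 to 13.5% on chromosome 18, and each interval crosses the dashed line at 10.1%.

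Chromosomes 10 and 12 stood on different sides of the pooled share, with overlapping intervals. Both are dense in peaks, with 22.6 and 26.0 peaks per Mb of span, yet 7.65% of wide peaks were weak on chromosome 10 (5.52 to 10.3%) and 12.5% on chromosome 12 (8.71 to 17.2%). Chromosome 12 had the most weak wide peaks per Mb, 0.686, and chromosome 11 the fewest, 0.151. Across the 20 chromosomes the weak share and the peaks per Mb had a Spearman rho of -0.48 (Pearson r -0.29). Without chromosome 12 these were -0.64 and -0.60 over 19 chromosomes, so r depended on this chromosome. All points come from the same library, and the weak share of small chromosomes rests on few peaks.

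Weak wide peaks had a median of 22 other peaks within 500 kb on either side (20 to 23) and strong ones 24 (23 to 25), a difference of -2 with an interval of -4.24 to -0.59. Between peaks of 2000 to 2500 bp it was -2.5 (-4.30 to 0.70). The interval also included 0 with a score limit of 400, with a width limit of 2500 bp and with narrower neighbours scoring under 100 left out. Against strong wide peaks scoring 500 to 1000 only, the difference was 1 (-1.24 to 2.41). With all wide peaks divided by this number into 4 classes of like size, the weak share was 9.96% at 0 to 13 peaks, 11.9% at 14 to 24, 10.4% at 25 to 40 and 7.97% (6.62 to 9.49%) at 41 to 134. The lowest share was thus in the most crowded class.

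The excess of strong neighbours was seen on most chromosomes. The share with a peak scoring 1000 or more within 10 kb was higher for weak than for strong wide peaks on 18 of 20 chromosomes. The exceptions were chromosome 14, with 12.5% of 24 weak and 16.0% of 175 strong wide peaks, and chromosome 15, with 15.8% of 19 and 18.2% of 143. The difference was widest on chromosome 16, at 52.9% of 17 and 19.6% of 148. Leaving out each chromosome in turn kept the pooled difference between 14.0 and 15.8 points. For another peak within 2 kb, weak wide peaks had the higher share on 15 of 20 chromosomes, from 18.7 points above on chromosome 10 to 19.1 points below on chromosome 20, where the shares were 40.0% of 10 and 59.1% of 132.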

How the data were processed

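H3K4me3 was measured in 1 ChIP library of C6 cells against 1 input library. The deposited file is a peak list with 1 score per peak. Per the file header, the authors used MACS to call H3K4me3 peaks against input, and the submitters' processing notes name the build rn4. Not given in the sources used here are the aligner, the read numbers and the version and settings of MACS. Starts are printed counting from 1. Width was end minus start as deposited.

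Gaps, nearest peaks, regions joined up to 1 kb apart and numbers of peaks within 500 kb were computed over all listed peaks with SciPy 1.17.1, pandas 2.3.3 and NumPy 2.4.6 in Python 3.11.15, and drawn with matplotlib 3.10.9. Gaps, joined regions and the strongest peak of a joined pair were tested on simulated peaks, and all 5 checks returned the right values. The other measures were not tested this way. They include the numbers of peaks within 500 kb, the nearest wide peak and the strongest other peak of a region. Named regions are the 10 widest, 5 most isolated, 5 lowest-scoring and 5 nearest to the threshold on each side, the 5 largest chains of members up to 50 kb apart, and the 2 highest and 2 lowest chromosomes. Members, measures and lists were chosen with earlier results of these data known. The measures of strong and wide peaks within 10 kb, the score bands, the solitary peaks and the chromosome-by-chromosome values were chosen after seeing the values.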

Additional observations from a re-analysis of the deposited data

How the results depend on the processing

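Each of 10 results was recomputed under up to 13 settings, 89 values in all, of which 60 stayed within the interval of the reported value. A score limit of 400 gave a weak share of 6.69% and a difference of -54.8 points in the share that was strongest of its region, and a limit of 600 gave 15.1%, -42.5 points and a wide-neighbour difference of 10.1 points. A width limit of 1500 bp gave a weak share of 22.7%, -1.30 points for a peak within 2 kb, 1.55 points for a weak nearest wide peak, 8.81 points for a strong neighbour and 7.04 for a wide one. A limit of 2500 bp gave 4.95%, 13.0 points within 2 kb, -60.7 points for the strongest of a region, 147.7 for the score of the nearest peak, 27.1 points for a strong and 22.8 for a wide neighbour. Peaks of 2000 to 2500 bp alone gave a weak share of 18.6%, -38.6 points for the strongest of a region, 0.36 points for a weak nearest wide peak, -29.9 for the nearest score, 15.2 points between chromosomes and 9.71 points for a strong neighbour. Strong peaks of 500 to 1000 only gave -36.6 points for the strongest of a region and 1 for local crowding. Leaving out narrower neighbours scoring under 100 gave -57.1 points for the strongest of a region and a nearest score higher by 139.3. Within 50 kb the differences were 11.0 points for strong and 8.24 for wide neighbours, and strong neighbours from 1500 gave 10.5 points. The strong-neighbour difference stayed above 0 with its interval in every setting for which it was recomputed here. Leaving out narrower neighbours under 100 and joining up to 2 kb were not among these. Its interval included 0 for solitary peaks, at 3.04 points (-1.12 to 7.94), and for neighbours within 1 Mb, at 0.68 points (-1.36 to 2.28). Adding X and leaving out chromosomes 10 and 12 moved no value outside its interval. Without chromosomes 10 and 12, however, the difference for a peak within 2 kb was 4.39 points with an interval that included 0 (-0.21 to 8.90). The cause of these shifts was not tested. With no read numbers, the depth behind a low score is unknown. No paired analysis was possible because each group had 1 library.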
